A study of Homo sapiens with 9 samples.

Results

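The genes described here encode the enzymes that make and use glutathione, the thioredoxin and peroxiredoxin system, enzymes of NADPH metabolism, and the regulators of the transcription factor NRF2. Members were chosen by name, as a list of 49 genes, with earlier results of these data known. Each was represented by the array probes whose annotated symbol, updated through its Entrez identifier, matched that name. Of the 49 genes, 45 had a probe, 75 probes in all, and OSGIN1, PRDX2, PRDX5 and AKR1B1 had none. GPX2, TXN2, AKR1C1 and AKR1C2 were detected on fewer than 3 arrays and were not tested. The remaining 41 genes, out of 13076 tested features, were each detected on all 9 arrays.

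Transcripts were measured on Illumina bead arrays in MDA-MB-231, an established human breast cancer cell line, 72 h after transfection. One set of 3 arrays came from cells given a first siRNA to KDM5A (KD1), another 3 from cells given a second such siRNA (KD2), and the last 3 from control cells given a luciferase siRNA (Luc). KDM5A, also called RBP2, is a demethylase of histone H3, and the cells of every group, controls included, were transfected. Knockdown of KDM5A was not analysed here, and the groups are named by their siRNA.

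Between 29.8% and 35.9% of the 48799 probes were detected on an array, with the lowest value in KD1 replicate 3 and the highest in Luc replicate 3. Arrays of 1 group correlated at 0.986 to 0.989 (Pearson, over 13076 features), and arrays of different groups at 0.963 to 0.975. The labels put the KD1 arrays at slide positions G, I and K and those of KD2 and Luc at A to F, so an effect of position cannot be told apart from one of KD1. Whether the arrays of a group hold RNA of separate cultures is not stated, and the p-values therefore reflect the spread between arrays only, which may be technical. Of the markers checked for the labelled line, VIM, CD44 and AXL were detected on all 9 arrays and FN1 on 2. Of the 7 epithelial and luminal markers, ERBB3, KRT18, KRT19 and EPCAM were detected on all 9 arrays and CDH1 on 2. The other members of that list, ESR1 and PGR, were detected on none. Marker intensities were summed after background correction, with an offset of 16 added per probe, and quantile normalization, so each sum includes that offset for every marker. The sums of the 4 line markers were 34899 to 36990 in KD1, 43281 to 44664 in KD2 and 43230 to 45264 in Luc. AXL fell with KD1 (log2 fold change -0.64, adjusted p = 0.0119). The sums of the 3 leukocyte markers (PTPRC, CD3E, CD14) were 83 to 96 in KD1, 111 to 115 in KD2 and 114 to 135 in Luc, with CD3E detected on 0 arrays, PTPRC on 1 and CD14 on 7. CD14 fell with KD1 against Luc (-1.15, adjusted p = 0.00197) and was lower in KD1 than in KD2 (-0.83, adjusted p = 0.00594). Those of the 4 fibroblast markers (COL1A1, DCN, LUM, PDGFRB) were 104 to 131 in KD1, 162 to 191 in KD2 and 122 to 129 in Luc, with LUM detected on 0 arrays. PDGFRB, detected on 0 KD1, 3 KD2 and 2 Luc arrays, rose by 1.32 with KD2 (adjusted p = 0.00131) and was lower in KD1 than in KD2 (-1.89, adjusted p = 1.15e-04). Those of the 7 epithelial and luminal markers were 1881 to 1973 in KD1, 2981 to 3966 in KD2 and 2515 to 2972 in Luc. Among these, KRT19 fell with KD1 (-0.61, adjusted p = 0.0367) and rose with KD2 (0.60, adjusted p = 0.0316), and EPCAM fell with both (-0.50, adjusted p = 0.0301, and -0.50, adjusted p = 0.0232). The part of these shifts in the results was not tested. Within the labelled line, a change in the share of cells with a marker transcript cannot be told apart from a change in its level per cell.

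Glutathione is a tripeptide made in a pair of steps: glutamate-cysteine ligase joins glutamate to cysteine, and glutathione synthetase adds glycine. Glutathione peroxidases and thioredoxin-driven peroxiredoxins reduce peroxides, and both systems are recharged with electrons from NADPH, which the pentose phosphate pathway, malic enzyme and isocitrate dehydrogenase supply. Many of these genes are known targets of NRF2, the product of NFE2L2, which KEAP1 marks for degradation and which binds antioxidant response elements as a dimer with a small Maf protein such as MAFG.

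Promoter sequence is shown for the members that rose and hold the core of that element, TGACNNNGC on either strand, within the 250 bases before a transcription start. The sequences are those of RefSeq on build GRCh38.p14, each a stretch of 100 bases on the gene's own strand with the match in capitals. GCLM (chr1:93909431-93909530, minus strand) and PGD (chr1:10398818-10398917, plus strand) rose with both siRNAs. TXNRD1, with matches before 2 of its annotated starts (chr12:104215635-104215734 and chr12:104286885-104286984, plus strand), and ME1 (chr6:83431134-83431233, minus strand) rose with KD1.
GCLM: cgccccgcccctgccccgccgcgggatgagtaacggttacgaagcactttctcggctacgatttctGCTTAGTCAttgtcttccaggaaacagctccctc
PGD: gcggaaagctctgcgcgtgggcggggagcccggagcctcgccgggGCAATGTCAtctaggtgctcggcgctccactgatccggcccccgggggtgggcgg
TXNRD1, first start: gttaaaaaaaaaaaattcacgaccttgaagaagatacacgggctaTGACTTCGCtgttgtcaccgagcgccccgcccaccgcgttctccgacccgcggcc
TXNRD1, second start: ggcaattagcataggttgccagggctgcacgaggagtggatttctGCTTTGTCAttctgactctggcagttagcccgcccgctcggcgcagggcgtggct
ME1: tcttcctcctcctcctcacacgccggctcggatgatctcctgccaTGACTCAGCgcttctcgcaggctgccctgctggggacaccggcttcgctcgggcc

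A promoter entry was used for 41 of the 49 members, and GSS, GSR, MGST2, TXN2, PRDX1, PRDX6, SOD1 and MSRA had none. The motif was found in 10 of these 41 genes (24.4%), against 13.2% of all 27305 genes with an entry. By window, it was present in 11 of 60 windows of members (18.3%) and in 10.9% of all 35116 windows. Besides GCLM, PGD, TXNRD1 and ME1, the genes with a match were EPHX1, GPX2, GSTO1, GSTP1, IDH1 and KEAP1, of which GPX2 was not tested and the others were not called against Luc. Of the members with an entry that rose, 4 of 10 held the motif with KD1 and 2 of 9 with KD2. A match is a description of letters and shows no binding.

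Differences are given on the log2 scale of the background-corrected intensity, and a gene is said to rise or fall, or to be called, when the adjusted p of limma's moderated test was under 0.05 after Benjamini-Hochberg adjustment over all 13076 features. With KD1, 12 of 41 members rose and 2 fell. Of all features, 16.5% were called in that comparison, 7.23% as higher and 9.27% as lower, against 34.1% of the members. With KD2, 11 members rose and 2 fell, or 31.7%, against 22.4% of all features (10.9% higher and 11.5% lower). Because each tested member was detected on all 9 arrays, the 9422 features detected on all 9 are a closer background, and of these 19.4% were called with KD1 and 27.2% with KD2. Neither background was matched for intensity. The median of the mean log2 intensities was 10.64 over the tested members and 7.42 over all tested features. Between the siRNAs, KD1 against KD2, 22 members were called, 12 higher and 10 lower, or 53.7%, against 27.4% of all features and 32.3% of those detected on all arrays. The median log2 fold change of the members was 0.23 with KD1 and 0.18 with KD2, against 0.0048 and -0.0012 over all features.

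In the same direction with each siRNA, 7 members were called: GCLM, GSS, MGST1, PGD, AKR1C3 and MSRB1 rose and MSRB3 fell. That is 17.1% of the members, against 5.41% of all features (2.77% higher and 2.65% lower with both) and 6.60% of those detected on all arrays. Both comparisons share the 3 Luc arrays, so their values are not independent of each other. Because members were chosen with earlier results of these data known, the shares of members describe the list and do not test it. The count was 4 without Luc replicate 2, 4 with arrays scaled to a common median in place of quantile normalization, and 12 without background correction. With median scaling the members called with KD1 were 10 higher and 5 lower, in place of 12 and 2. The shares of all features called under these alternatives are not given here, so these counts cannot be set against them.

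**Figure D1:**
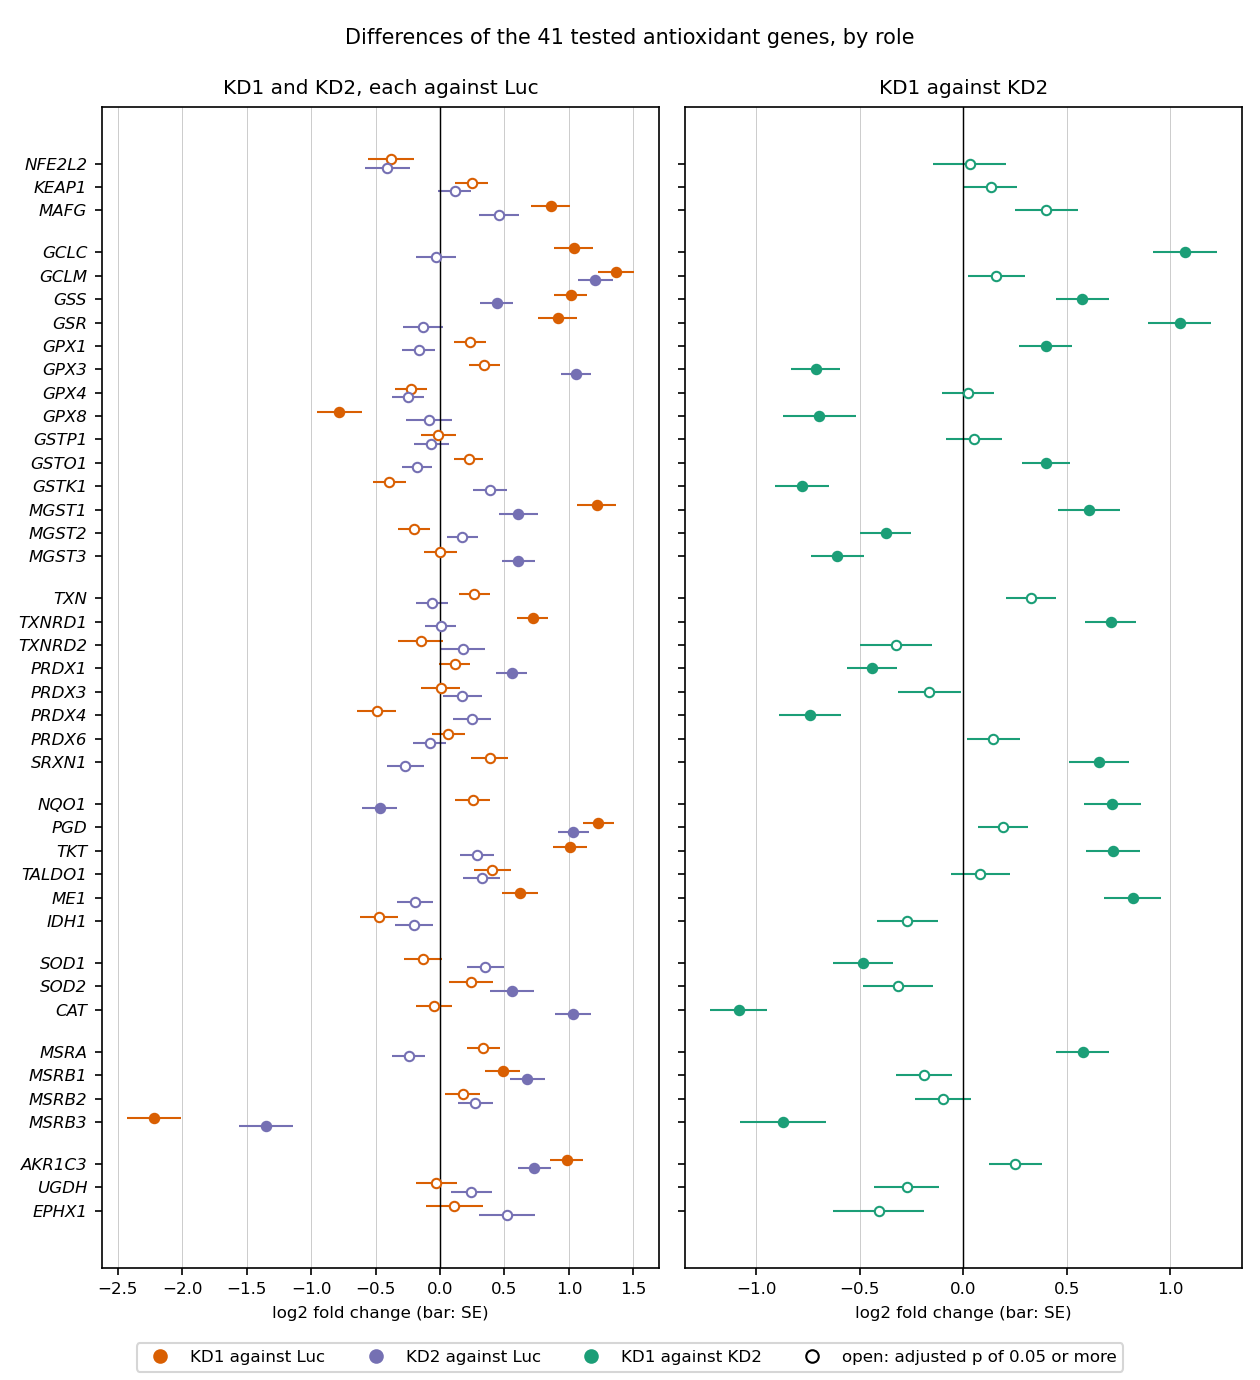
Log2 fold change with its SE for each of the 41 tested members, grouped by role from NRF2 regulators at the top to detoxification enzymes at the bottom. The left panel gives KD1 and KD2, each against Luc, and the right panel KD1 against KD2, with filled points for an adjusted p under 0.05. MSRB3 lies far to the left with both siRNAs, GCLM and PGD lie near 1 or above with both, and GCLC, GSR and CAT are the points farthest from 0 in the right panel.

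Among the NRF2 regulators, MAFG rose with KD1 and was the only one of the 3 called there. Log2 intensities of MAFG were 9.19, 9.22 and 9.22 in KD1, 8.72, 9.03 and 8.67 in KD2, and 8.20, 8.24 and 8.61 in Luc. Every KD1 array lay above the KD2 arrays, and every KD2 array above those of Luc. The rise with KD1 was 1.81-fold (log2 fold change 0.86, SE 0.15, adjusted p = 0.00428), and a second MAFG probe rose as well (0.84, adjusted p = 0.0231). Values of further probes come from a fit with every detected probe as a feature of its own. With KD2 the log2 difference of 0.46 was not called (adjusted p = 0.0547), but it was called without Luc replicate 3 (0.59, adjusted p = 0.025) and without background correction (0.36, adjusted p = 0.0126). With KD2 limma called 0 of the 3 regulators, while 2 had an unadjusted p under 0.05.

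NFE2L2, the gene of NRF2 itself, had log2 intensities of 10.54, 10.87 and 10.49 in KD1, 10.71, 10.74 and 10.36 in KD2, and 11.20, 11.11 and 10.73 in Luc. The groups overlapped, with Luc replicates 1 and 2 the highest of all arrays. The log2 difference was -0.38 with KD1 (SE 0.18, adjusted p = 0.174) and -0.41 with KD2 (SE 0.18, adjusted p = 0.124), not called in either case. Without background correction both were called lower (-0.36, adjusted p = 0.0383 with KD1, and -0.39, adjusted p = 0.0195 with KD2). KEAP1, the gene of the NRF2 inhibitor, had 9.73, 9.85 and 9.92 in KD1, 9.70, 9.77 and 9.63 in KD2, and 9.59, 9.43 and 9.74 in Luc. Its groups overlapped as well, and neither the KD1 difference (0.25, adjusted p = 0.225) nor the KD2 difference (0.11, adjusted p = 0.578) was called. Between KD1 and KD2 limma called 0 of the 3 regulators, while 1 had an unadjusted p under 0.05 (MAFG, 0.40, adjusted p = 0.0772).

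The enzymes that make glutathione rose with KD1 at every step, and with KD2 at 2 of 3 genes. GCLM, the modifier subunit of glutamate-cysteine ligase, had log2 intensities of 10.86, 10.44 and 10.59 in KD1, 10.41, 10.56 and 10.44 in KD2, and 9.18, 9.35 and 9.26 in Luc. All 6 arrays with an siRNA against KDM5A lay at least 1 log2 unit above each Luc array. GCLM rose 2.58-fold with KD1 and 2.31-fold with KD2 (log2 fold change 1.37, SE 0.14, adjusted p = 2.38e-04, and 1.21, SE 0.14, adjusted p = 3.17e-04). A second GCLM probe rose by 1.39 and 1.21. KD1 and KD2 overlapped, and their difference was not called (0.16, adjusted p = 0.439).

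GCLC, the catalytic subunit of the same ligase, rose with KD1 but was not called with KD2. Its values were 8.23, 8.49 and 8.12 in KD1, 7.27, 7.42 and 6.95 in KD2, and 7.20, 7.28 and 7.24 in Luc. The KD1 arrays stood apart, and those of KD2 were spread around the narrow Luc range. The rise with KD1 was 2.05-fold (adjusted p = 0.00177), the KD2 difference was -0.034 (SE 0.15, adjusted p = 0.909), and KD1 exceeded KD2 by 1.07 (SE 0.15, adjusted p = 7.26e-04). On the deposited normalized values the GCLC differences were 0.54 against Luc with KD1 and 0.55 between KD1 and KD2, both called. GSS, glutathione synthetase, had 10.12, 10.31 and 10.10 in KD1, 9.65, 9.50 and 9.65 in KD2, and 9.25, 9.02 and 9.22 in Luc. The groups did not overlap and ran in the order KD1, KD2, Luc. It rose by 1.01 with KD1 (adjusted p = 7.95e-04) and by 0.44 with KD2 (adjusted p = 0.0327), and KD1 was above KD2 by 0.57 (adjusted p = 0.00792). The KD2 call for GSS was lost without KD2 replicate 1, 2 or 3 or Luc replicate 2 or 3 (adjusted p = 0.0507 to 0.12) and with median scaling (0.157).

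GSR, the reductase that regenerates glutathione with NADPH, had 8.36, 8.30 and 8.30 in KD1, 7.58, 7.05 and 7.19 in KD2, and 7.40, 7.29 and 7.52 in Luc. The KD1 arrays lay above all others, while KD2 and Luc overlapped. GSR rose 1.88-fold with KD1 (log2 SE 0.15, adjusted p = 0.00306) and was above KD2 by 1.05 (adjusted p = 7.56e-04), or by 0.49 and 0.55 on the deposited normalized values, both called. A second GSR probe, detected on 8 of 9 arrays and near the detection floor, disagreed: it was not called with KD1 (-0.27, adjusted p = 0.462) and was lower with KD2 (-0.68, adjusted p = 0.0496). Over the 14 tested glutathione genes, 5 rose and 1 fell with KD1 and 5 rose with KD2, with medians of 0.23 and 0.070. The shares called were 42.9% with KD1 and 35.7% with KD2, against 16.5% and 22.4% of all features.

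**Figure D2:**
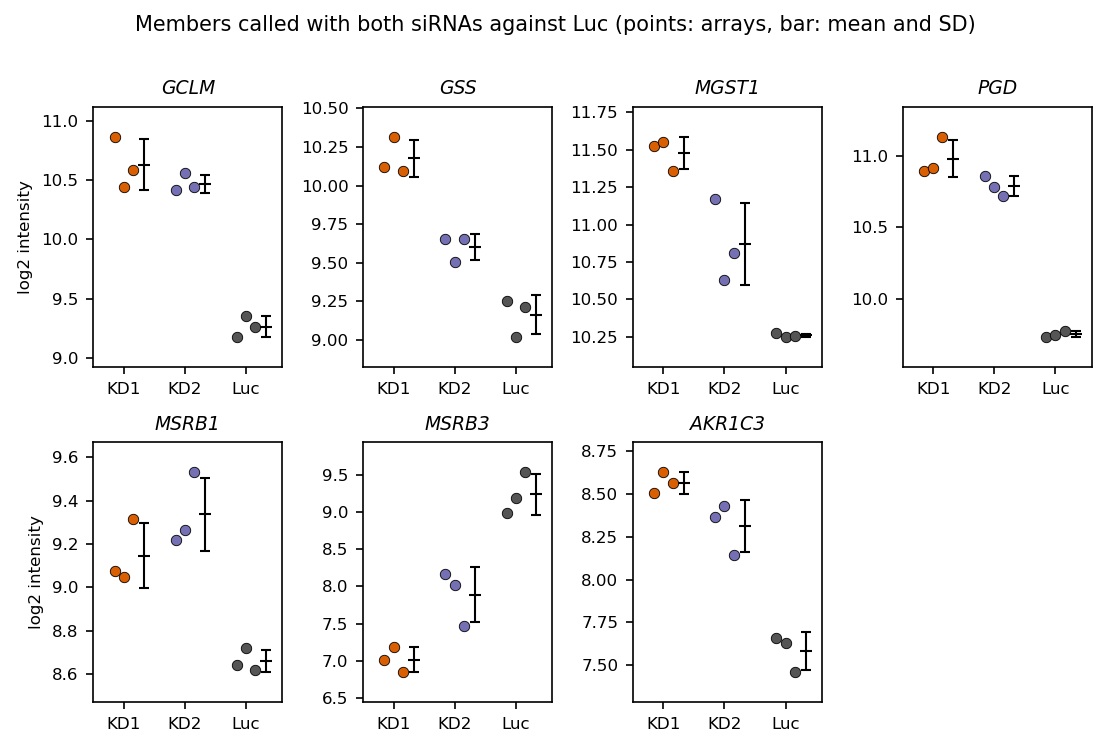
Log2 intensity on each array (points) with the mean and SD of the 3 arrays (bars) for the 7 members called with both siRNAs, each panel with its own axis, which does not start at 0. In 6 panels the KD1 and KD2 arrays lie above all Luc arrays, and in the MSRB3 panel they lie below.

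Of the glutathione peroxidases, GPX3 rose with KD2 and GPX8 fell with KD1. GPX3, the secreted plasma form, had 10.52, 10.40 and 10.62 in KD1, 11.27, 11.18 and 11.23 in KD2, and 10.10, 10.18 and 10.24 in Luc. No groups overlapped, with KD2 highest and Luc lowest. GPX3 rose 2.08-fold with KD2 (adjusted p = 2.69e-04), its difference with KD1 was not called (0.34, adjusted p = 0.0731), and KD1 lay below KD2 (log2 difference -0.71, SE 0.12, adjusted p = 0.00163). The KD1 difference was called without background correction (0.32, adjusted p = 0.0205). GPX8, of the endoplasmic reticulum, had 8.44, 8.56 and 8.26 in KD1, 9.37, 9.08 and 8.89 in KD2, and 9.39, 9.31 and 8.90 in Luc, and each KD1 array was below every other array. Its level fell 1.72-fold with KD1 (log2 fold change -0.78, adjusted p = 0.0139), and the KD1 level was 1.62-fold below that of KD2 (adjusted p = 0.0151). The GPX8 call against Luc was lost without KD1 replicate 3, Luc replicate 1 or Luc replicate 2 (adjusted p = 0.0523 to 0.0541), and that against KD2 without KD1 replicate 3 (0.0554) or KD2 replicate 1 (0.0553).

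GPX1, the cytosolic form, was called only between the siRNAs: its values were 13.11, 12.96 and 12.99 in KD1, 12.50, 12.78 and 12.57 in KD2, and 12.69, 12.80 and 12.87 in Luc, and the KD1 arrays lay above the rest. The difference of 0.40 between KD1 and KD2 (adjusted p = 0.0411) was lost without any 1 of KD1 replicates 1, 2 and 3, KD2 replicates 1 and 3 and Luc replicate 2 (adjusted p = 0.0593 to 0.123) and with median scaling (0.171). GPX4, which reduces lipid peroxides in membranes, was not called, at -0.22 with KD1 and -0.25 with KD2.

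Of the transferases, MGST1, a microsomal glutathione S-transferase, rose with both siRNAs. It had 11.53, 11.55 and 11.36 in KD1, 11.17, 10.63 and 10.81 in KD2, and 10.27, 10.25 and 10.26 in Luc. The Luc arrays agreed closely, and the KD2 arrays were spread between them and the KD1 arrays. The rise was 2.32-fold with KD1 (adjusted p = 7.35e-04) and 1.52-fold with KD2 (adjusted p = 0.0162), with KD1 above KD2 by 0.61 (adjusted p = 0.0135). On 2 other MGST1 probes the rise with KD1 was called (0.88 and 0.95) and that with KD2 was not (0.37, adjusted p = 0.244, and 0.024, adjusted p = 0.933). The KD2 call was also lost without KD2 replicate 1 (0.0501), without Luc replicate 2 (0.0502) and with median scaling (0.0648), and the call between the siRNAs without KD2 replicate 2 (0.0535) and with median scaling (0.0704).

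MGST3, a related membrane transferase, rose with KD2: its values were 11.42, 11.17 and 11.20 in KD1, 11.93, 11.75 and 11.93 in KD2, and 11.34, 11.27 and 11.19 in Luc. All KD2 arrays lay above the KD1 and Luc arrays, which overlapped. The rise was 1.52-fold (adjusted p = 0.00711), the KD1 difference was 0.0011 (SE 0.13), and KD1 was below KD2 (log2 difference -0.61, adjusted p = 0.00575). GSTK1, the kappa-class transferase of mitochondria and peroxisomes, had 10.68, 11.02 and 10.86 in KD1, 11.75, 11.63 and 11.51 in KD2, and 11.22, 11.30 and 11.22 in Luc. The KD1 arrays were below all Luc arrays and the KD2 arrays above them. Neither difference from Luc was called (-0.39, adjusted p = 0.0685, and 0.39, adjusted p = 0.0598), while that between KD1 and KD2 was (-0.78, adjusted p = 0.00185). Without background correction both differences from Luc were called, lower with KD1 (adjusted p = 0.0104) and higher with KD2 (0.0082).

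GSTO1, an omega-class transferase, had 13.63, 13.69 and 13.73 in KD1, 13.29, 13.25 and 13.30 in KD2, and 13.55, 13.36 and 13.47 in Luc, with KD1 above Luc and KD2 below it on every array. KD1 exceeded KD2 by 0.40 (adjusted p = 0.0262), and a second GSTO1 probe gave 0.54 (adjusted p = 0.00943). The first probe's call was lost without KD1 replicate 2 or 3 or any 1 KD2 array (adjusted p = 0.0563 to 0.0805) and with median scaling (0.124). MGST2, which can make leukotrienes, had 10.80, 10.88 and 10.71 in KD1, 11.11, 11.14 and 11.26 in KD2, and 10.87, 11.09 and 11.04 in Luc, and the KD1 and KD2 arrays did not overlap. KD1 was below KD2 (log2 difference -0.37, adjusted p = 0.0443), a call that was lost on leaving out any array but Luc replicate 1 (adjusted p = 0.056 to 0.125). GSTP1, the pi-class transferase, was not called (-0.015 with KD1 and -0.068 with KD2).

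In the thioredoxin system, TXNRD1 and PRDX1 were each called with a different siRNA, and the other 6 tested genes were called with neither. With each siRNA this was 12.5% of the 8 tested genes, below the 16.5% of all features with KD1 and 22.4% with KD2. TXNRD1, the cytosolic thioredoxin reductase, had 12.46, 12.54 and 12.45 in KD1, 11.76, 11.88 and 11.69 in KD2, and 11.82, 11.64 and 11.85 in Luc. The KD1 arrays lay apart, and KD2 and Luc shared the same range. It rose 1.64-fold with KD1 (log2 SE 0.12, adjusted p = 0.00332), the KD2 difference was 0.006 (SE 0.12), and KD1 was above KD2 by 0.71 (adjusted p = 0.00193). On a second TXNRD1 probe, the rise with KD1 was 0.96 (adjusted p = 0.00359).

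PRDX1, an abundant cytosolic peroxiredoxin, had 12.86, 12.81 and 12.80 in KD1, 13.36, 13.12 and 13.32 in KD2, and 12.65, 12.79 and 12.69 in Luc. Here the KD2 arrays were the highest, and both KD1 and KD2 lay above Luc without overlap. The rise with KD2 was 1.47-fold (adjusted p = 0.00832), and a second PRDX1 probe rose by 0.66 (adjusted p = 0.00714). With KD1 the difference was 0.11 (adjusted p = 0.577), and KD1 was below KD2 (log2 difference -0.44, adjusted p = 0.0207). That last call was lost without KD1 replicate 2 or 3 or KD2 replicate 1 or 3 (adjusted p = 0.0511 to 0.0631).

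PRDX4, the peroxiredoxin of the endoplasmic reticulum, had 11.11, 11.03 and 10.94 in KD1, 11.73, 11.83 and 11.74 in KD2, and 11.69, 11.67 and 11.20 in Luc. KD1 lay below Luc and KD2 above it, with Luc replicate 3 close to the KD1 range. Against Luc neither was called (-0.49, adjusted p = 0.0502, with KD1, and 0.25, adjusted p = 0.276, with KD2), and KD1 was below KD2 (log2 difference -0.74, SE 0.15, adjusted p = 0.00499). Without Luc replicate 3 the KD1 difference was called (-0.66, adjusted p = 0.0131), as it was with median scaling (-0.67, adjusted p = 0.0194). SRXN1, sulfiredoxin, which repairs overoxidised peroxiredoxins, had 10.19, 10.36 and 10.30 in KD1, 9.76, 9.58 and 9.55 in KD2, and 9.89, 9.67 and 10.13 in Luc, with KD1 above all other arrays and KD2 overlapping Luc. KD1 was higher than KD2 by 0.66 (adjusted p = 0.00746), whereas neither siRNA was called against Luc (0.38, adjusted p = 0.0979, and -0.27, adjusted p = 0.211). Without background correction the KD1 difference of SRXN1 from Luc was called (0.35, adjusted p = 0.0204). TXN, TXNRD2, PRDX3 and PRDX6 were not called in any of the 3 comparisons, with log2 differences from Luc between -0.15 (TXNRD2, KD1) and 0.27 (TXN, KD1).

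**Figure D3:**
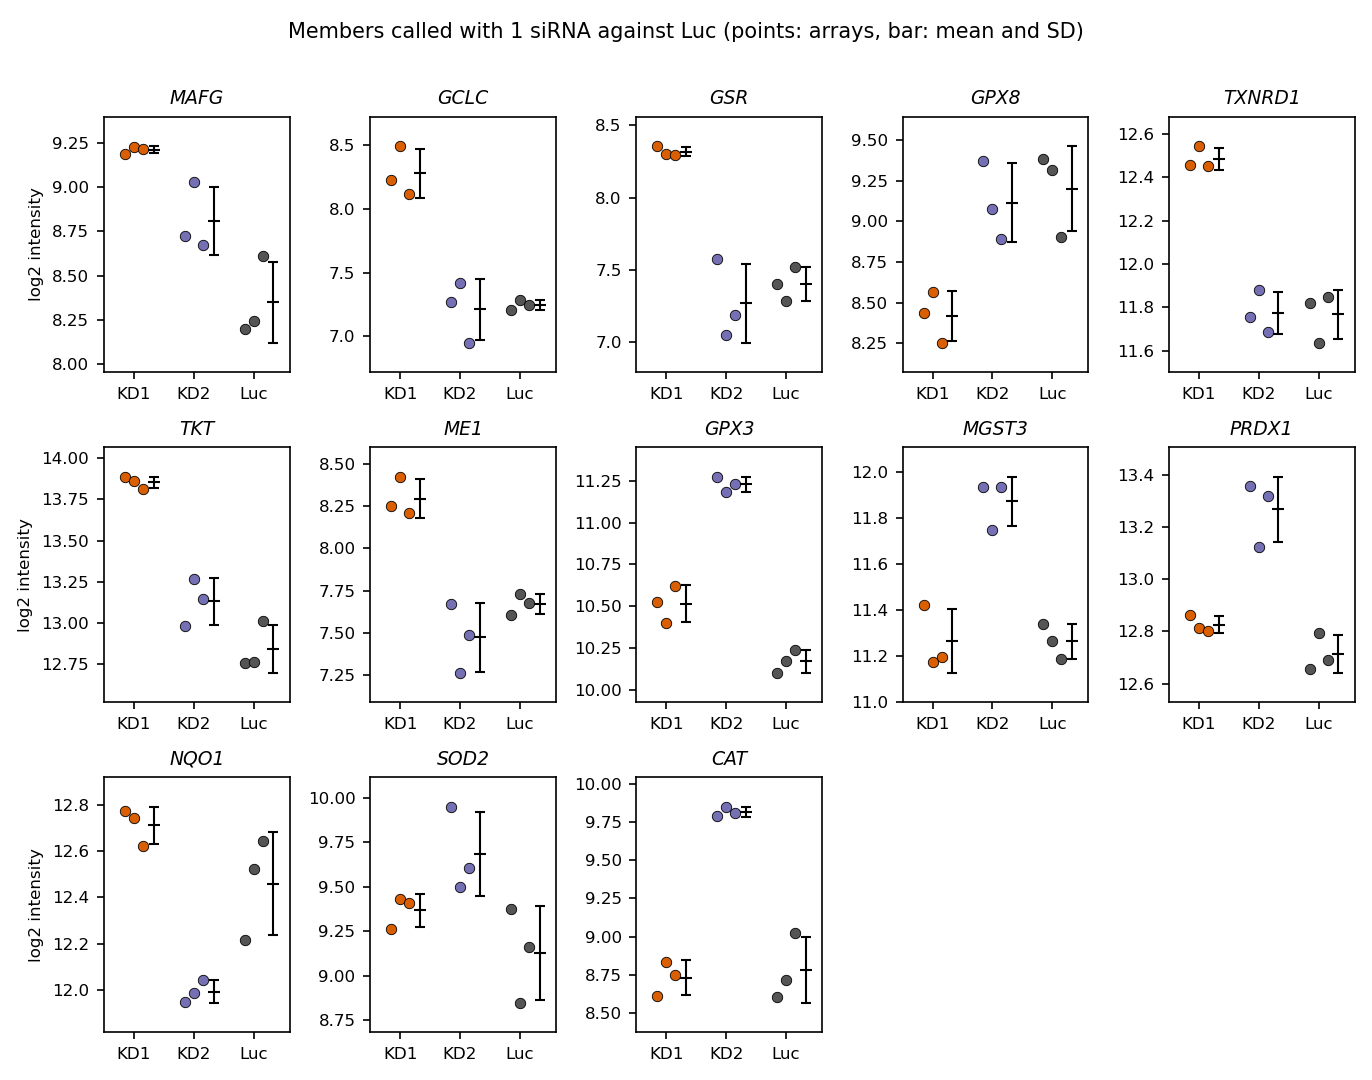
Log2 intensity on each array (points) with the mean and SD of the 3 arrays (bars) for the 13 members called against Luc with 1 of the siRNAs, each panel with its own axis, which does not start at 0. From MAFG to ME1 the KD1 arrays stand apart from Luc, and from GPX3 to CAT the KD2 arrays do.

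Of the 6 NADPH genes, 3 rose with KD1, and with KD2 1 rose and 1 fell. That is 50% called with KD1 and 33.3% with KD2, against 16.5% and 22.4% of all features. The list medians were 0.51 and 0.046. PGD, 6-phosphogluconate dehydrogenase, an NADPH-producing enzyme of the pentose phosphate pathway, rose with both siRNAs. It had 10.90, 10.91 and 11.13 in KD1, 10.86, 10.78 and 10.72 in KD2, and 9.74, 9.75 and 9.78 in Luc. The Luc arrays were tightly grouped, and each KD1 and KD2 array lay well above them. PGD rose 2.34-fold with KD1 and 2.05-fold with KD2 (adjusted p = 2.05e-04 and 3.35e-04), and the difference between the siRNAs was not called (0.19, SE 0.12, adjusted p = 0.27).

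TKT, transketolase of the same pathway, had 13.88, 13.86 and 13.82 in KD1, 12.98, 13.27 and 13.14 in KD2, and 12.76, 12.76 and 13.01 in Luc. The KD1 arrays exceeded all others, and KD2 overlapped Luc. The rise with KD1 was 2.01-fold (adjusted p = 8.70e-04), with KD1 above KD2 by 0.72 (adjusted p = 0.00262). With KD2 the difference was 0.29 (adjusted p = 0.142), called without background correction (adjusted p = 0.0441). TALDO1, transaldolase, differed by 0.41 and 0.32 with KD1 and KD2, and neither was called (adjusted p = 0.0833 and 0.138). ME1, the cytosolic malic enzyme, had 8.25, 8.43 and 8.21 in KD1, 7.67, 7.26 and 7.49 in KD2, and 7.61, 7.73 and 7.68 in Luc. Again the KD1 arrays lay apart. ME1 rose 1.54-fold with KD1 (adjusted p = 0.0128) and was 1.76-fold higher in KD1 than in KD2 (adjusted p = 0.00182), and the call against Luc was lost with median scaling (0.34, adjusted p = 0.191). The deposited normalized values gave ME1 differences of 0.35 and 0.44, both called. IDH1, the cytosolic isocitrate dehydrogenase, was not called (-0.47, adjusted p = 0.0528, with KD1 and -0.20, adjusted p = 0.365, with KD2). Its calls and those of TALDO1 under the alternatives are not given here.

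NQO1, the quinone reductase that is often read as an NRF2 target, fell with KD2 and was not called with KD1. It had 12.77, 12.74 and 12.62 in KD1, 11.95, 11.99 and 12.04 in KD2, and 12.21, 12.52 and 12.64 in Luc. All KD2 arrays lay below Luc, and KD1 overlapped the upper part of the Luc range. NQO1 was 1.38-fold lower with KD2 (log2 fold change -0.47, SE 0.14, adjusted p = 0.0344). With KD1 the log2 difference was 0.25 (adjusted p = 0.246), and NQO1 was 1.65-fold higher in KD1 than in KD2 (adjusted p = 0.00354). The call against Luc was lost without any 1 KD2 array, Luc replicate 2 or Luc replicate 3 (adjusted p = 0.0664 to 0.109), and a second probe, detected on 7 arrays, was not called (-0.29, adjusted p = 0.5). GCLM and PGD rose on the same KD2 arrays on which NQO1 fell.

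Of the 3 genes of superoxide and hydrogen peroxide removal, 2 rose with KD2 (66.7%, against 10.9% of all features called higher). CAT, catalase, had 8.61, 8.84 and 8.75 in KD1, 9.79, 9.85 and 9.81 in KD2, and 8.61, 8.72 and 9.02 in Luc. The 3 KD2 arrays agreed closely and lay above all others, and KD1 overlapped Luc. The rise was 2.05-fold with KD2 (adjusted p = 7.23e-04), the KD1 difference was -0.05 (SE 0.14, adjusted p = 0.852), and KD1 lay below KD2 (log2 difference -1.08, adjusted p = 3.63e-04). A second CAT probe gave 0.71 with KD2, not called (adjusted p = 0.0933), and -0.96 between KD1 and KD2, called (adjusted p = 0.0269). SOD2, the mitochondrial superoxide dismutase, had 9.26, 9.43 and 9.41 in KD1, 9.95, 9.50 and 9.60 in KD2, and 9.37, 8.85 and 9.16 in Luc, with every KD2 array above the others. It rose 1.47-fold with KD2 (adjusted p = 0.0401), a call that was lost on leaving out any array but KD2 replicate 2 or Luc replicate 1 (adjusted p = 0.051 to 0.14) and with median scaling (0.116), and a second probe was not called (0.47, adjusted p = 0.0974). SOD1, the cytosolic dismutase, had 12.06, 12.40 and 12.37 in KD1, 12.63, 12.81 and 12.84 in KD2, and 12.51, 12.48 and 12.23 in Luc, and KD1 and KD2 did not overlap. KD1 was lower than KD2 (log2 difference -0.48, adjusted p = 0.0319), and the call was lost without KD1 replicate 1 or 3 or KD2 replicate 2 or 3 (adjusted p = 0.05 to 0.112). With KD1 limma called 0 of these 3 genes against Luc, and 0 had an unadjusted p under 0.05.

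Methionine sulfoxide reductases repair oxidised methionine in proteins, and MSRB3, whose product lies in the endoplasmic reticulum or mitochondria, had the largest absolute log2 fold change of the 41 members with either siRNA. It had 7.01, 7.19 and 6.85 in KD1, 8.17, 8.02 and 7.47 in KD2, and 8.99, 9.19 and 9.53 in Luc. The groups did not overlap, and KD1 was lowest. MSRB3 fell 4.66-fold with KD1 and 2.55-fold with KD2 (adjusted p = 1.57e-04 and 0.00151), and KD1 was below KD2 (log2 difference -0.87, adjusted p = 0.0111). A second MSRB3 probe fell by 1.08 with KD1 and by 0.89 with KD2, and another, near the detection limit and detected on 6 arrays, was not called (-0.57, adjusted p = 0.316, and -0.92, adjusted p = 0.0894). On the deposited normalized values the MSRB3 differences were -1.29 with KD1, -0.88 with KD2 and -0.41 between KD1 and KD2, all called.

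MSRB1, a selenoprotein, had 9.08, 9.05 and 9.32 in KD1, 9.22, 9.26 and 9.53 in KD2, and 8.64, 8.72 and 8.62 in Luc, with both siRNAs above Luc on every array. It rose 1.40-fold with KD1 (adjusted p = 0.0348) and 1.60-fold with KD2 (adjusted p = 0.00578). The KD1 call was lost without KD1 replicate 1 or 3 or any 1 Luc array (adjusted p = 0.0632 to 0.116) and with median scaling (0.22, adjusted p = 0.337). MSRA, which repairs the other stereoisomer of the sulfoxide, had 10.63, 10.54 and 10.64 in KD1, 9.92, 9.99 and 10.17 in KD2, and 10.17, 10.21 and 10.43 in Luc. KD1 was above Luc and KD2 below it, and the difference between KD1 and KD2 was called (0.58, adjusted p = 0.00783), whereas those from Luc were not (0.34, adjusted p = 0.104, and -0.24, adjusted p = 0.21). Without background correction MSRA was called with KD1 (0.31, adjusted p = 0.0297). MSRB2, the mitochondrial form, was not called.

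Of the aldo-keto reductases, AKR1C3, which reduces steroids, prostaglandins and other carbonyls, was the 1 tested. It had 8.50, 8.63 and 8.56 in KD1, 8.36, 8.43 and 8.14 in KD2, and 7.66, 7.63 and 7.46 in Luc. All KD1 and KD2 arrays were above Luc, without overlap. AKR1C3 rose 1.97-fold with KD1 and 1.66-fold with KD2 (adjusted p = 9.49e-04 and 0.00305), and KD1 against KD2 was not called (0.25, adjusted p = 0.179). AKR1C1, AKR1C2 and AKR1C3 are closely related genes whose transcripts could share a probe, and AKR1C1 was detected on 0 arrays and AKR1C2 on 1. On the deposited normalized values the AKR1C3 differences were smaller, 0.57 and 0.41, both called. UGDH, which makes UDP-glucuronate, and EPHX1, the microsomal epoxide hydrolase, were not called, with log2 differences of -0.029 and 0.11 with KD1 and 0.24 and 0.52 with KD2.

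**Figure D4:**
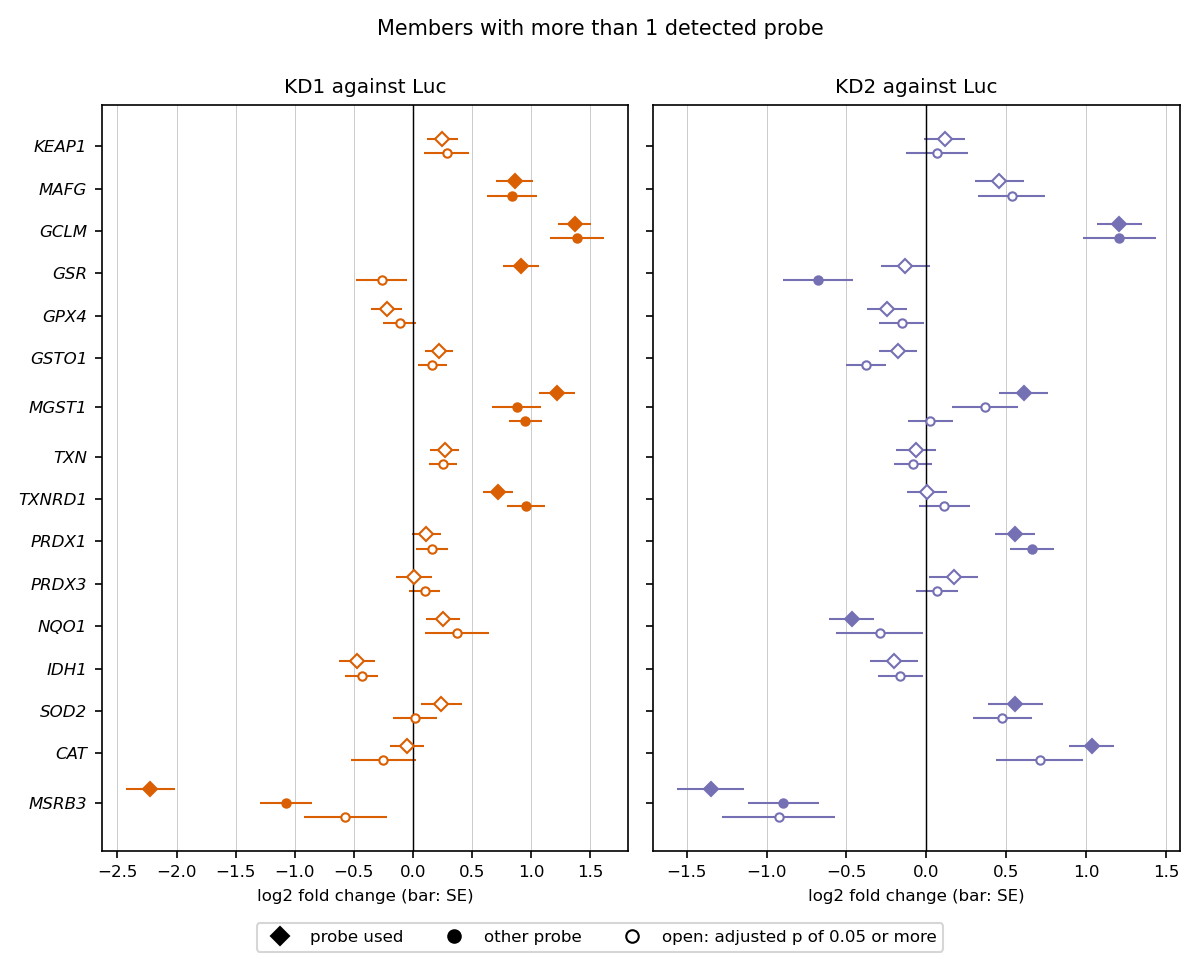
Log2 fold change with its SE for every probe detected on at least 3 arrays, for the 16 members with more than 1 such probe, in KD1 against Luc (left) and KD2 against Luc (right). Diamonds are the probes used for the counts, circles the other ones, and filled symbols have an adjusted p under 0.05. The probes of GCLM and TXNRD1 lie close together, while those of GSR lie on opposite sides of 0 with KD1 and those of MSRB3 spread from -2.22 to -0.57.

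Between KD1 and KD2, the 12 members higher in KD1 were GCLC, GSS, GSR, GPX1, GSTO1, MGST1, TXNRD1, SRXN1, NQO1, TKT, ME1 and MSRA. The 10 members lower in KD1 were GPX3, GPX8, GSTK1, MGST2, MGST3, PRDX1, PRDX4, SOD1, CAT and MSRB3. In this comparison 13.3% of all features were called higher and 14.1% lower, against 29.3% and 24.4% of the members. Over the 14 glutathione genes the calls were split, 6 higher and 5 lower in KD1. GCLC, GSR, TXNRD1, TKT and ME1 were called higher with KD1 against Luc, not called with KD2, and higher in KD1 than in KD2, a pattern of 2.45% of all features. GPX3, MGST3, PRDX1 and CAT were called higher with KD2, not called with KD1, and lower in KD1 than in KD2, a pattern of 4.84% of all features. Of the 41 members, 13 were called in none of the 3 comparisons, against 7872 of all 13076 features.

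Other genes of these pathways were taken from a list of 74, of which 68 had a probe and 56 were tested. With KD1 6 of them rose and 8 fell (25% called, against 16.5% of all features), and with KD2 13 rose and 11 fell (42.9%, against 22.4%). Their medians were 0.077 and -0.023, near those of all features. Those called in the same direction with each siRNA were HMOX1, ME3 and PIR, which rose, and ME2, GLO1 and SLC3A2, which fell. That is 10.7% of the 56 genes, against 5.41% of all features. HMOX1, the inducible heme oxygenase and a known NRF2 target, had log2 intensities of 9.23, 9.26 and 9.35 in KD1, 10.14, 10.36 and 10.28 in KD2, and 6.76, 6.46 and 6.64 in Luc, and the groups did not overlap. It rose by 2.66 with KD1 (SE 0.13, adjusted p = 1.15e-05) and by 3.64 with KD2 (SE 0.13, adjusted p = 2.91e-07). On the deposited normalized values these rises were 1.46 and 2.27, both called. KD1 lay below KD2 for HMOX1 (log2 difference -0.98, adjusted p = 4.12e-04). Of the 41 members, 10 were also called lower in KD1 than in KD2, and 12 were called higher.

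ME3, a mitochondrial malic enzyme that yields NADPH, rose 2.26-fold with KD1 and 2.15-fold with KD2 (adjusted p = 0.0019 and 0.00194), with log2 differences of 0.64 and 0.60 on the deposited normalized values, both called. PIR, an iron-binding nuclear protein also listed among NRF2 targets, rose by 1.00 and 0.76 (adjusted p = 0.00663 and 0.0183), with the KD2 call lost without KD2 replicate 1 or 2 or Luc replicate 3 (adjusted p = 0.0603 to 0.0686) and with median scaling (0.0775). The PIR differences were 0.55 and 0.41 on the deposited normalized values, both called. ME2, the mitochondrial malic enzyme that uses NAD, fell 1.52-fold with KD1 and 1.78-fold with KD2 (adjusted p = 0.018 and 0.0027), and its KD1 call was lost without KD1 replicate 3, Luc replicate 1 or Luc replicate 2 (adjusted p = 0.0588 to 0.0664). GLO1, the glyoxalase that uses glutathione to clear methylglyoxal, fell by 0.57 and 0.58 on the log2 scale (adjusted p = 0.0143 and 0.00961), with the KD1 call lost without KD1 replicate 3 (0.0507) or Luc replicate 3 (0.051). SLC3A2, the heavy chain of the cystine transporter, was 1.40-fold and 1.92-fold lower (adjusted p = 0.0277 and 7.95e-04), and its KD1 call was lost without any 1 KD1 or Luc array (adjusted p = 0.0505 to 0.0908).

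Of the 56 genes, 2 were called in opposite directions with the siRNAs, against 1.25% of all features, and they are named here after their values were seen. NFE2L3, which encodes an NRF2-related transcription factor, had 9.83, 10.04 and 9.76 in KD1, 12.23, 12.23 and 12.14 in KD2, and 11.72, 11.64 and 11.48 in Luc. Its level fell with KD1 (log2 fold change -1.74, adjusted p = 4.69e-05) and rose with KD2 (0.58, adjusted p = 0.00942), without overlap. NNT, the mitochondrial transhydrogenase that makes NADPH from NADH, had 7.77, 7.76 and 7.88 in KD1, 9.06, 8.76 and 8.80 in KD2, and 8.54, 8.31 and 8.50 in Luc. It was 1.56-fold lower with KD1 and 1.34-fold higher with KD2 (adjusted p = 0.00862 and 0.0424), and the KD2 call was lost without any 1 of the 9 arrays (adjusted p = 0.0526 to 0.145) and with median scaling (0.235). On the deposited normalized values NNT differed by -0.38 with KD1 and by 0.29 with KD2, both called.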

How the data were processed

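Transcript levels were measured on 9 Illumina bead arrays, 3 per group, grouped by the siRNA named in the labels. The authors deposited a table of bead intensity and a detection p-value per probe and array, not yet normalized per the file headers, and a table of normalized log2 values. The submitters' processing notes name lumi, whose version is not given in the sources used here.

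Intensities were background-corrected with the detection p-values, quantile-normalized and put on the log2 scale with limma 3.58.1 (neqc, offset 16) in R 4.3.3. Probes were named from the platform annotation, with symbols updated through Entrez identifiers: 28094 of 48799 probes had 1 symbol, 13 several and 20692 none. Each symbol kept its probe with the highest mean, and a probe without a single symbol was a feature of its own, giving 39555 features. Tested were the 13076 detected (p-value under 0.05) on at least 3 arrays. A group-means model on all 9 arrays was fitted with lmFit and eBayes, with Benjamini-Hochberg adjustment over all tested features for each of the 3 comparisons. The number of arrays limits the precision: the median residual SD was 0.217 log2 units, and for 1 gene alone the smallest two-sided p that exact permutation of 3 against 3 arrays allows is 0.1.

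On data simulated for KD1 against Luc with all 13076 features, 13.4% of 67 features changed by 0.5, 80.6% of 67 changed by 1 and 100% of 66 changed by 2 log2 units were recovered, with 7 false calls among 12876. No other features were changed, whereas 16.5% of features were called in the data for KD1 against Luc. The adjustment was therefore stricter in the simulation, and its recovery does not give the share of changes missed in the data. Members described with values were those called in at least 1 comparison, plus NFE2L2 and KEAP1. Other pathway genes were named where both siRNAs were called against Luc. Members and lists were chosen with earlier results of these data known. Alternatives changed the scaling, background correction, offset, deposited values, detection filter, probe choice, samples fitted, variance model and replicate block, and left out each array in turn. The level of KDM5A is not reported here. Motifs were searched in RefSeq promoter windows (GRCh38.p14) with Python 3.11.15.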

Additional observations from a re-analysis of the deposited data

How the results depend on the processing

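For the 30 members described with values, 49 of 90 differences were called. Of these, 0 turned direction, 35 kept the call under every alternative and 14 lost it at least once, and 13 of the 41 that were not called were called under at least 1. The 14 members called with KD1 against Luc became 23 on the deposited normalized values, 22 without background correction and 23 with a trended and robust variance model, and 12 to 15 when any 1 array was left out. The 13 called with KD2 became 21 on the deposited values and 20 with the trended model, and 9 to 13 when 1 array was left out. The 22 called between KD1 and KD2 were 16 to 22 when 1 array was left out and stayed within 1.5 times that count under the other alternatives. The 7 called in the same direction with each siRNA became 4 with median scaling, 12 without background correction, 11 on the deposited values and 12 with the trended model, and 4 to 7 when 1 array was left out, the lowest without Luc replicate 2. Median scaling moved the median of all features with KD1 to -0.19. The share of all features called under each alternative is not given here. Whether the member counts moved with the call rate of all features is therefore not shown. These counts cover all tested members, and calls under the alternatives are not given by gene for members outside the 30. The causes of these changes were not tested.

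Replicate numbers are shared between the groups, but same-numbered arrays did not deviate together (r = -0.024 to 0.107 over 9 pairs, 1 of them over 0.1), and 4 of 9 arrays correlated best with their own number. With the replicate number as a block, 14 members were called with KD1, 11 with KD2, 20 between the siRNAs and 6 with the same sign. The calls lost under the block were GSS with KD2 (adjusted p = 0.0552), NQO1 with KD2 (0.0516), and GPX1 (0.0643) and MGST2 (0.0616) between the siRNAs. Without the detection filter, which adds features to the adjustment, GSS, SOD2 and NQO1 with KD2, MSRB1 with KD1, and GPX1, MGST2 and SOD1 between the siRNAs lost their calls (adjusted p = 0.0638 to 0.0886). Fitting only the groups compared ended those of NQO1 and SOD2 with KD2 and of GPX1 and MGST2 between the siRNAs (0.0562 to 0.0682). Called differences of the 30 members on the deposited values had a median size of 84.9% of those given, from 47.1% to 105%. Depth is limited by signal over background: GPX2, TXN2, AKR1C1 and AKR1C2 were at or near the detection limit. Shifts of 0.5 log2 units were mostly missed on simulated data. Far fewer features were changed there than were called in the data, so this does not measure what was missed here.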
